A study of Mus musculus with 15 samples.

Results

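The isotype dependence of the plasma cell step was measured as an interaction: the change from iGC cell to plasma cell (PC) in IgE-expressing mouse B cells, minus the same change in IgG1-expressing B cells. It rests on 12 of the 15 RNA-seq libraries of the series, 3 biological replicates in each of 4 sorted groups, named IgE iGC and IgE PC, and IgG1 iGC with IgG1 PC. The other 3 libraries, a bulk sample of the culture at day 6, contributed only to the estimate of the spread. All groups share a wild-type genotype and 1 culture history. B cells were grown for 6 days with 100 ng/ml IL-4 on 40LB cells, a fibroblast-derived feeder line that displays CD40 ligand and releases BAFF, then for 2 days without feeders or added stimulus, and were sorted at day 8. The cells are therefore products of a culture rather than of an animal, and the labels give neither the sort markers nor the animals behind the replicates. The iGC cells are the sorted cells that had not become plasma cells; the name is commonly used for induced germinal centre-like B cells. By its title, the study asks how calcium signalling governs the formation and survival of IgE plasma cells.

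A B cell that becomes a plasma cell turns off the transcription factors that hold B cell identity, among them Pax5, and turns on Prdm1 (Blimp-1), Irf4 and Xbp1. Xbp1 and the other arms of the unfolded protein response then enlarge the endoplasmic reticulum (ER) for antibody secretion, while antigen presentation, B cell receptor signalling and, in the end, cell division are shut down. IgE plasma cells keep more of their antibody at the cell surface as a receptor than IgG1 plasma cells do, and are known as mostly short-lived.

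The libraries held totals of 17740876 to 54067953 counts, and IgE iGC replicate 3 was the smallest. Ighe made up 98.5 to 98.6% of the sum of Ighe and Ighg1 counts in IgE PC and 85.7 to 87.8% in IgE iGC, against 1.71 to 2.73% in IgG1 PC and 4.74 to 5.74% in IgG1 iGC, so every library matched its isotype label. A summed set of 8 plasma cell markers (such as Sdc1, Xbp1 and Jchain) reached 19470 to 21850 CPM (counts scaled to library size) in IgE PC and 10890 to 16300 in IgG1 PC. It was 941 to 1091 CPM in IgE iGC and 664.7 to 673.3 in IgG1 iGC. Jchain made up most of the plasma cell sums, with means of 12640 CPM in IgE PC and 7172 in IgG1 PC. All 8 means were higher in IgE PC, though Xbp1 was nearly equal, at 1905 and 1889. A sum of 8 B cell markers (such as Pax5) stood at 11360 to 11420 CPM in IgE PC and 13690 to 15350 in IgG1 PC. Among these only Ms4a1 was higher in IgE PC, at 917 against 837. The IgG1 PC libraries stood apart from each other: log2 CPM correlated between its replicates at 0.978 to 0.986, against 0.984 to 0.992 within the other sorted groups. Immunoglobulin genes took 21.7%, 15.3% and 16.1% of their counts, and the sum of 12 fibroblast markers was 206, 79.3 and 207 CPM, against 25.1 to 81.4 CPM in the other 9 sorted libraries. T cell, natural killer cell and mast cell or basophil markers summed to at most 3.49 CPM in any sorted library, and myeloid markers to at most 28 CPM. Some results that rest on IgG1 PC are therefore also given with replicate 2 as its only library, a setting chosen after the data were seen. A call in that setting holds no spread between IgG1 PC libraries.

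Of 15692 genes tested, 6733 (42.9%) had a different plasma cell step in the isotypes at an adjusted p under 0.05 (edgeR quasi-likelihood test, Benjamini-Hochberg), 3101 (19.8%) with a positive and 3632 (23.1%) with a negative interaction. Values are in log2 units throughout, and a positive one means that the gene rose more, or fell less, in IgE. The shares of 19.8% positive and 23.1% negative are the background for the counts of each function list below, where no other setting is named. The difference was at least 2-fold for 491 genes (3.13%) in the positive and 1753 (11.2%) in the negative direction. The step itself was called for 64.1% of genes in IgE and 59.1% in IgG1. Rises of at least 2-fold were about as many in the isotypes, 2146 (13.7%) in IgE and 2206 (14.1%) in IgG1, but falls of that size numbered 2136 (13.6%) in IgE and 788 (5.02%) in IgG1. The difference lay mostly at the plasma cell stage: of the interaction genes, 6451 (95.8%) also differed when the plasma cell groups were compared directly (58.1% of all genes), and 403 (5.99%) when the iGC groups were (3.87% of all genes). The balance of signs depended on the scaling. With library totals in place of TMM scaling, which discounts the large immunoglobulin share of plasma cells, the median interaction of all genes moved from -0.06 to -0.30 and the positive share of called genes from 46.1% to 21.6%. Directions of single genes are therefore relative to the TMM scale. Of the 15692 genes, 1542 were positive and 5603 negative with library totals. With limma on log2(TPM + 1), another unit and test, 1289 were positive and 3065 negative. List counts given below for those 2 settings have these counts as their background.

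**Figure D1:**
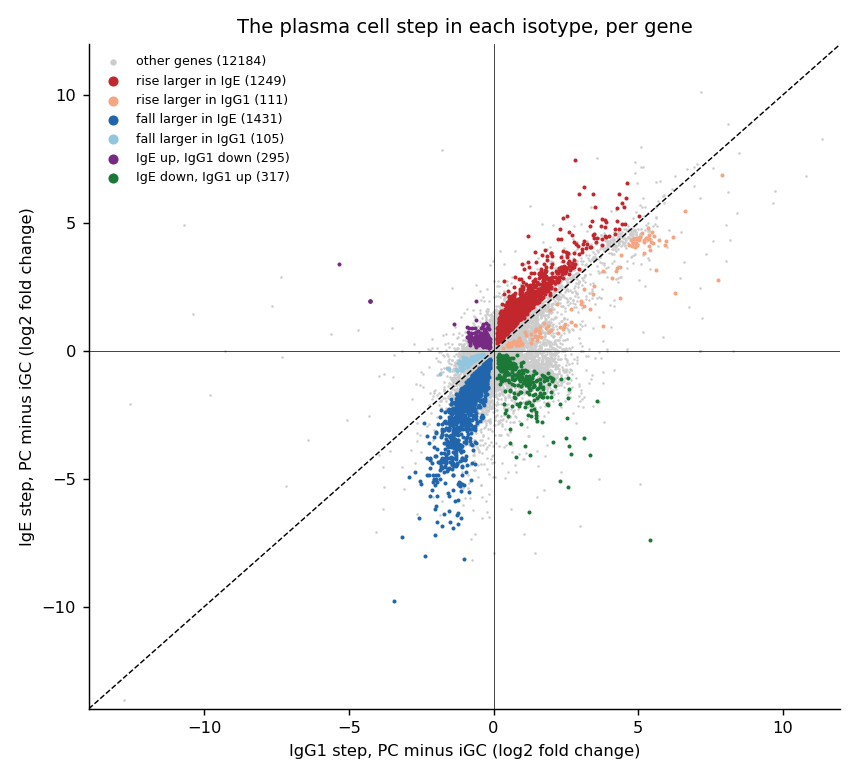
Change from iGC to PC in IgE (vertical axis, log2) against that in IgG1 (horizontal axis, log2) for the 15692 genes tested; each dot is a gene, colours mark the 6 classes of genes called in the interaction and in both steps, and the dashed line marks equal steps. Most coloured genes had the larger step in IgE, with 1249 rises (above the line) and 1431 falls (below it) larger in IgE against 111 and 105 larger in IgG1.

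Among genes called in the interaction and in both steps, 1249 (7.96% of those tested) rose further in IgE and 1431 (9.12%) fell further in IgE, while 111 (0.707%) rose further and 105 (0.669%) fell further in IgG1. The last 2 counts depended on single libraries: without IgG1 PC replicate 2 they were 183 and 397, and leaving out another single library gave as few as 76 and 55. In a further 612 genes (3.9% of those tested) the isotypes moved in opposite directions, 295 (1.88%) up in IgE and down in IgG1 (530 without IgG1 PC replicate 2) and 317 (2.02%) the reverse. Another 1926 interaction genes were called in the IgE step alone, 1196 in the IgG1 step alone and 103 in neither.

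Genes were also grouped by the size of their step. The 201 genes that fell by 4 to 9 log2 units in IgE reached a median of 3.97% of their iGC level there, but stood at a median of 38.8% in IgG1 PC (quartiles 28.2 and 57.3%), and 87.1% of them were called in the interaction. The 298 genes that rose by 4 to 9 units in IgE had a median rise of 4.49 there and 4.51 in IgG1, and 29.9% were called. Immunoglobulin genes, mostly variable segments, made up 171 of the 299 genes rising at least 16-fold in IgE, with no upper limit; the other 128 rose by a median of 4.95 in IgE and 4.29 in IgG1, and 34.4% of them were called, 40 positive and 4 negative. Choosing genes by a step favours the isotype used to choose, so the reverse choice is given too. The 273 genes rising by 4 to 9 units in IgG1 had medians of 4.82 in IgG1 and 4.40 in IgE, and the 60 genes falling 4- to 8-fold in IgG1 fell by a median of 4.03 in IgE. The 17 genes falling at least 16-fold in IgG1, among them predicted genes and small RNAs such as Rnu3b1, whose near-identical copies make it uncertain, had a median IgE step of 0.83, and 11 (64.7%) were called, all positive. In bulk RNA, a sorted group with fewer converted cells and one with a smaller change per cell cannot be told apart, and the part of the marker sums given above in these differences was not tested.

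**Figure D2:**
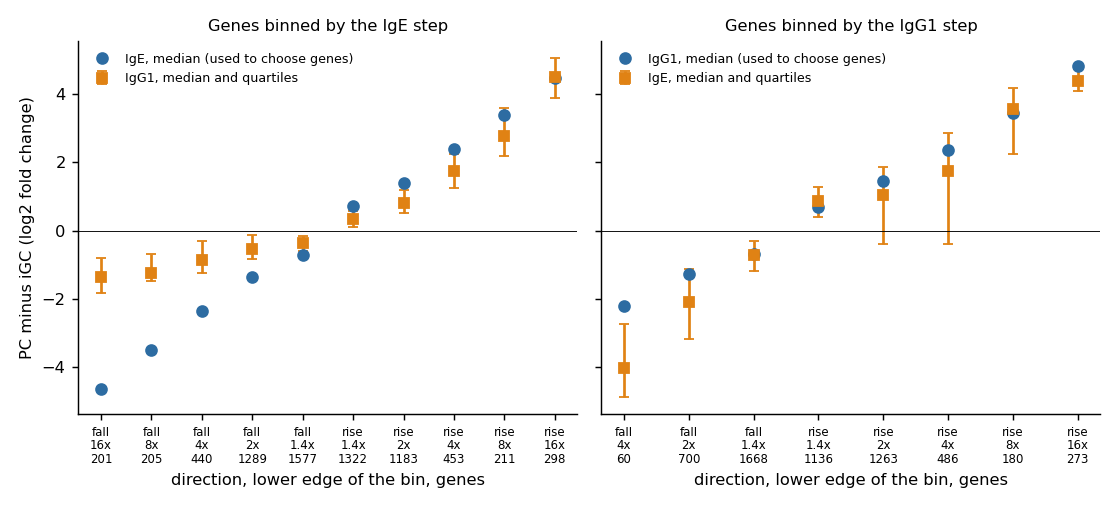
Median step (log2 change from iGC to PC) of genes binned by direction and size of the IgE step (left) or the IgG1 step (right); circles are the isotype used for binning, squares the other isotype with quartiles, and bins under 20 genes are left out. Genes that fell by 4 to 9 units in IgE fell by a median of 1.37 in IgG1, whereas those that rose by 4 to 9 units had medians of 4.49 in IgE and 4.51 in IgG1.

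Of 27 plasma cell regulators and surface markers tested, 25 were called up in each isotype, and 16 (59.3%) were called in the interaction, 10 positive and 6 negative, with a median of 0.24 that fell to 0.01 with library totals. Prdm1, the repressor that drives the plasma cell programme, was at 6.87, 5.86 and 4.96 CPM in IgE iGC, 234, 231 and 211 in IgE PC, 4.44, 3.84 and 3.68 in IgG1 iGC and 199, 212 and 183 in IgG1 PC. Its interaction of -0.40 ± 0.19 (SE) was not called (adjusted p = 0.095), and neither were those of Xbp1 (-0.39 ± 0.17, adjusted p = 0.075) or Sdc1, the surface proteoglycan CD138 (0.28 ± 0.28, adjusted p = 0.44). With library totals both Prdm1 (-0.64, adjusted p = 0.0156) and Xbp1 (-0.61, adjusted p = 0.00189) passed the test with a larger rise in IgG1. Xbp1 also passed it with limma on TPM (-0.48, adjusted p = 0.0016), with a minimum count of 50 (0.0481) and without replicate 2 or 3 of IgG1 PC (0.0288 and 0.0236), and Prdm1 with the 12 sorted libraries alone (-0.41, adjusted p = 0.0394). Irf4 rose by 4.49 in IgE and 3.86 in IgG1, an interaction of 0.64 ± 0.10 (adjusted p = 0.00018). Cd28, a costimulatory receptor that supports plasma cell survival, rose further in IgE, from 1.00, 0.833 and 0.672 to 59.7, 57.9 and 67.0 CPM, against 0.907, 0.644 and 0.985 to 16.3, 20.3 and 14.6 in IgG1 (1.81 ± 0.33, adjusted p = 0.00051). Bhlha15 (Mist1), a factor that builds secretory capacity, went the other way, with a rise of 6.86 in IgE and 7.89 in IgG1 (-1.03 ± 0.29, adjusted p = 0.01), a call lost with limma on TPM (-0.11, adjusted p = 0.587). Eaf2, an elongation-associated factor, was named for the size of its interaction in that direction (-1.38 ± 0.20, adjusted p = 6.8e-05): it rose from 40.4, 32.9 and 38.2 to 128, 119 and 125 CPM in IgE and from 11.8, 10.2 and 9.76 to 118, 83.3 and 76.0 in IgG1. Neither the plasma cell groups nor the iGC groups overlapped for Eaf2, and IgE was higher at both stages.

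ER chaperones and folding enzymes rose in both isotypes and further in IgE. All 28 members tested were called up in both steps, where the background of called rises is 30.5% in IgE and 30.1% in IgG1, with median steps of 2.99 and 2.54. The interaction was positive for 24 and negative for none (median 0.88), although 3 members became negative with library totals and with limma on TPM. Hspa5 (BiP), the main ER chaperone, was at 515, 485 and 478 CPM in IgE iGC, 6886, 6750.5 and 7235 in IgE PC, 435, 452 and 422 in IgG1 iGC and 3095, 2450.3 and 2251 in IgG1 PC. Every PC library lay above every iGC library, and every IgE PC library lay above every IgG1 PC library, the nearest being IgG1 PC replicate 1. The rise was 3.82 in IgE and 2.57 in IgG1, an interaction of 1.25 ± 0.13 (SE; adjusted p = 2.7e-06). Ero1l (Ero1a), the oxidase that renews disulphide-forming capacity, had the largest interaction of the list. It was at 71.1, 67.6 and 68.4 CPM in IgE iGC, 474, 457 and 539 in IgE PC, 65.0, 67.4 and 70.8 in IgG1 iGC and 122, 135 and 121 in IgG1 PC, so that it rose by 2.83 in IgE and by 0.89 in IgG1 (1.93 ± 0.11, adjusted p = 1.7e-08). Dnajb9 (1.82), Dnajc3 (1.36) and Pdia4 (1.35), 2 BiP cochaperones and a disulphide isomerase, followed.

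Because these members rose together, their promoters were searched for the ER stress element, CCAAT and CCACG with 9 bases between them, which is bound by ATF6 and NF-Y. Promoters are RefSeq windows of 300 bases (250 before to 50 after a start site, build GRCm38.p6), searched on both strands. The element was present in 7 of 23 ER folding genes with a promoter in the table (30.4%), against 0.137% of all 27025 genes. The 3 ER lists described next, which moved alike, mostly lacked it. It was present in 2 of 20 degradation genes, 0 of 26 translocation genes and 0 of 33 ER to Golgi transport genes. A match describes letters and is not a measured site. The lists searched here and below were chosen by known function and may hold known targets of each factor. Such shares therefore do not test what an element does. The Hspa5 promoter, at chr2:34771840-34772139 on the plus strand, is shown as the best known of these, with the element in capitals starting 65 bases before the start site.
Hspa5: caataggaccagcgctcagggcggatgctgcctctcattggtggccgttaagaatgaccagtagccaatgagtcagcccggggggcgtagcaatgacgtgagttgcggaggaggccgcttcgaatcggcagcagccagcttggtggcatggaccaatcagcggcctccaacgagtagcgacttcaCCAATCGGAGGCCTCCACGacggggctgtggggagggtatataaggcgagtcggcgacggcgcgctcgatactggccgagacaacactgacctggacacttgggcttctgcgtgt

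ER-associated degradation, which returns misfolded proteins to the cytosol, translocation with N-glycosylation, and ER to Golgi transport moved like the chaperones. Interactions were positive for 21 of 25, 26 of 35 and 32 of 38 members and negative for none on the TMM scale (medians 0.59, 0.66 and 0.69); with library totals the counts were 17, 23 and 25, and 1 transport member was negative. Sel1l, the scaffold of the HRD1 ubiquitin ligase complex, was at 179.9, 178 and 177 CPM in IgE iGC, 1831, 1799 and 2045 in IgE PC, 160.4, 162 and 165 in IgG1 iGC and 575, 544 and 536 in IgG1 PC. The iGC groups were close, and IgE PC stood at more than 3 times the level of IgG1 PC in every library (1.64 ± 0.08, adjusted p = 6.0e-09). Herpud1, a partner of the same complex, had an interaction of 1.5 ± 0.12 (adjusted p = 4.0e-07). Fam8a1, another cofactor, rose by 0.90 in IgE, whereas its IgG1 step of -0.22 was not called (interaction 1.11 ± 0.20, adjusted p = 0.00042). Gfpt1, which feeds the hexosamine pathway for glycosylation, rose by 3.16 and 1.79 in IgE and IgG1, and Mia2, which loads large cargo at ER exit sites, by 1.99 and 0.54. Sec24d, a COPII coat subunit, rose about equally, by 5.67 and 5.62 (interaction 0.04 ± 0.12, adjusted p = 0.8).

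The integrated stress response and amino acid supply had the largest median interaction of the 33 function lists, 1.16. This response, run by the factor ATF4, induces amino acid transporters, synthetases and stress regulators. Of 40 genes tested, 34 had a positive interaction, 22 of them by at least 2-fold, and none a negative one; with library totals 31 were positive. Median steps were 2.13 in IgE and 1.16 in IgG1. Trib3, a pseudokinase induced by ATF4, was at 8.55, 8.97 and 11.0 CPM in IgE iGC, 131, 135 and 141 in IgE PC, 5.32, 6.09 and 8.20 in IgG1 iGC and 21.5, 13.4 and 18.0 in IgG1 PC. Every IgE PC library exceeded the highest IgG1 PC library by more than 6-fold, and the iGC groups, though low, did not overlap either (2.43 ± 0.23, adjusted p = 1.9e-06). Slc6a9, the glycine transporter GlyT1, was at 4.53, 3.80 and 5.84 CPM in IgE iGC, 114, 123 and 142 in IgE PC, 3.63, 3.65 and 4.09 in IgG1 iGC and 19.6, 15.2 and 20.9 in IgG1 PC, with no overlap between the plasma cell groups (2.49 ± 0.22, adjusted p = 9.7e-07). Slc7a11, the cystine transporter subunit xCT, rose from below 1 CPM in every iGC library to 30.0, 26.7 and 30.9 CPM in IgE PC and 2.59, 3.69 and 4.08 in IgG1 PC (2.12 ± 0.43, adjusted p = 0.0011). Cebpb, a partner factor of ATF4, had an interaction of 2.06 ± 0.27 (adjusted p = 3.0e-05). Atf4 itself rose by 1.98 in IgE and 1.10 in IgG1 (0.88 ± 0.12, adjusted p = 5.0e-05).

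The ATF4 element searched was TGATGNAA, on both strands. It was present in 12 of 33 genes of this list with a promoter (36.4%), against 4.51% of all genes. Lists with negative median interactions had it too: 3 of 7 pro-survival BCL2 genes (42.9%, median -0.57) and 5 of 23 NF-kB genes (21.7%, median -0.47). The 3 Bcl2a1 copies are in both of those lists. The promoters of Trib3 (chr2:152344011-152344310, minus strand) and Slc7a11 (chr3:50443564-50443863, minus strand, 2 matches) are shown because these genes had a match and among the largest interactions of the list. No promoter with a match was found for Slc6a9, whose interaction was larger than both, or for Cebpb. Capitals mark the element, printed in the direction of transcription.
Trib3: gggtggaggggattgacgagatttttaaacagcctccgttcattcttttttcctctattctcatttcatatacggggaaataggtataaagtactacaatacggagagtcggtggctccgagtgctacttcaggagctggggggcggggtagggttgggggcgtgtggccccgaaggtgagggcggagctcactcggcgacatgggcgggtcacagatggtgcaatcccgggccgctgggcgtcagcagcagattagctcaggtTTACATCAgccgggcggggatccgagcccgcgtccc
Slc7a11: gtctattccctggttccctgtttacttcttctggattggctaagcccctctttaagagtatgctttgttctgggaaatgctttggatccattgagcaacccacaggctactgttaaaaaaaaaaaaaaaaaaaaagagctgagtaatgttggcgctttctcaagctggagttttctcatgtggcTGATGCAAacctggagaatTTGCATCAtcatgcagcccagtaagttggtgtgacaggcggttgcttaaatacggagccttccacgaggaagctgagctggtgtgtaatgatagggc

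**Figure D3:**
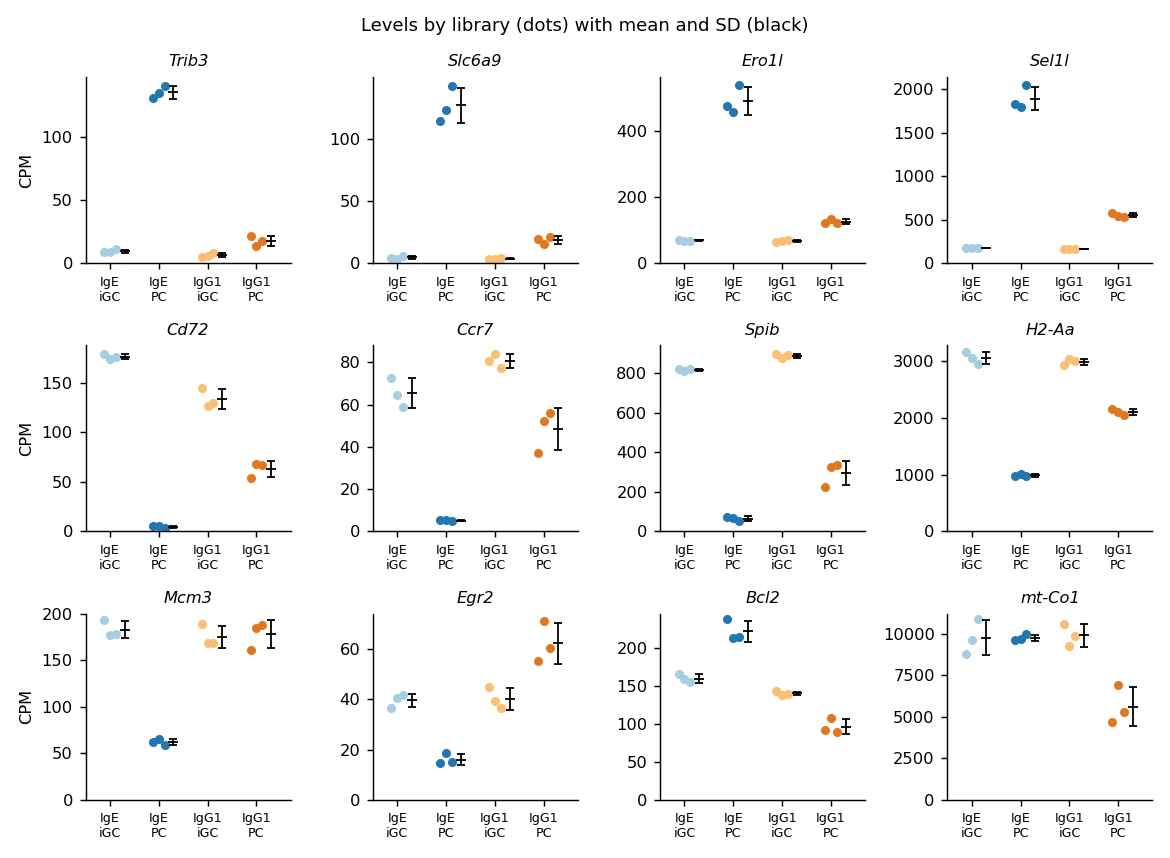
Level of 12 genes (CPM, linear axes from 0) in the 4 sorted groups; dots are the 3 libraries and the black bar is the mean with its SD. Trib3, Slc6a9, Ero1l and Sel1l are highest in IgE PC, Cd72, Ccr7, Spib and H2-Aa lowest there, and mt-Co1 (whose reads are partly shared with similar sequences) is lowest in IgG1 PC, at 4664 to 6919 CPM.

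B cell identity and germinal centre genes mostly fell in both isotypes and further in IgE. Of 24 B cell transcription factors 20 were called down in IgE and 18 in IgG1, where called falls make up 33.6% and 29% of all genes. Their interaction was negative for 12 and positive for 1 (median -0.49), and for 20 and 0 with library totals. Of 23 germinal centre genes 19 and 14 were called down, and the interaction was negative for 15 and positive for 1 (median -0.80). Spib, an ETS factor of B cells, was at 822, 812 and 819 CPM in IgE iGC, 74.5, 67.6 and 50.5 in IgE PC, 896, 876 and 892 in IgG1 iGC and 224, 325 and 334 in IgG1 PC. All IgE PC libraries lay below all IgG1 PC libraries, and IgG1 PC replicate 1 was the lowest of its group (-2.08 ± 0.19, adjusted p = 1.5e-06). Pax5 fell by 2.45 in IgE and 1.45 in IgG1 (-0.99 ± 0.22, adjusted p = 0.0021). Bach2, which delays plasma cell fate, was not called (-0.62 ± 0.25, adjusted p = 0.059). It passed the threshold without replicate 1 of IgG1 PC or of IgG1 iGC (adjusted p = 0.000107 and 0.037) and with library totals (-0.87, adjusted p = 0.0184). The same held with DESeq2 (adjusted p = 0.0486) and with a minimum count of 50 (0.0386). With IgG1 PC replicate 2 alone the Bach2 interaction was -0.89. Bcl6, the germinal centre repressor, fell almost as far in IgG1 as in IgE, by 2.39 and 2.84 (-0.45 ± 0.16, adjusted p = 0.032). The call was lost with IgG1 PC replicate 2 alone and without the low count filter (adjusted p = 0.0521). It was also lost when any of 8 single libraries was left out, with adjusted p of 0.0512 to 0.0884. These were replicates 2 and 3 of IgE PC, IgG1 PC and IgG1 iGC, and replicates 1 and 3 of IgE iGC.

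MHC class II presentation, by which B cells show antigen to T cells, had 15 negative and 0 positive interactions among 18 genes (median -0.93), and with library totals all 18 were negative. H2-Aa, a class II chain, was at 3159, 3055 and 2943 CPM in IgE iGC, 979, 1013 and 969.8 in IgE PC, 2926, 3025 and 3003 in IgG1 iGC and 2145, 2092 and 2049 in IgG1 PC. The iGC groups overlapped, IgG1 PC was lower than both, and IgE PC lower again, with a narrow spread in each group (-1.12 ± 0.10, adjusted p = 1.1e-06). Ciita, the master activator of these genes, fell by 3.48 in IgE and 1.45 in IgG1 (-2.03 ± 0.20, adjusted p = 2.8e-06). March1, a ligase that removes class II from the surface, fell by 4.18 and 2.29, and H2-Oa, a chain of the peptide-editing inhibitor DO, by 2.72 and 1.05.

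**Figure D4:**
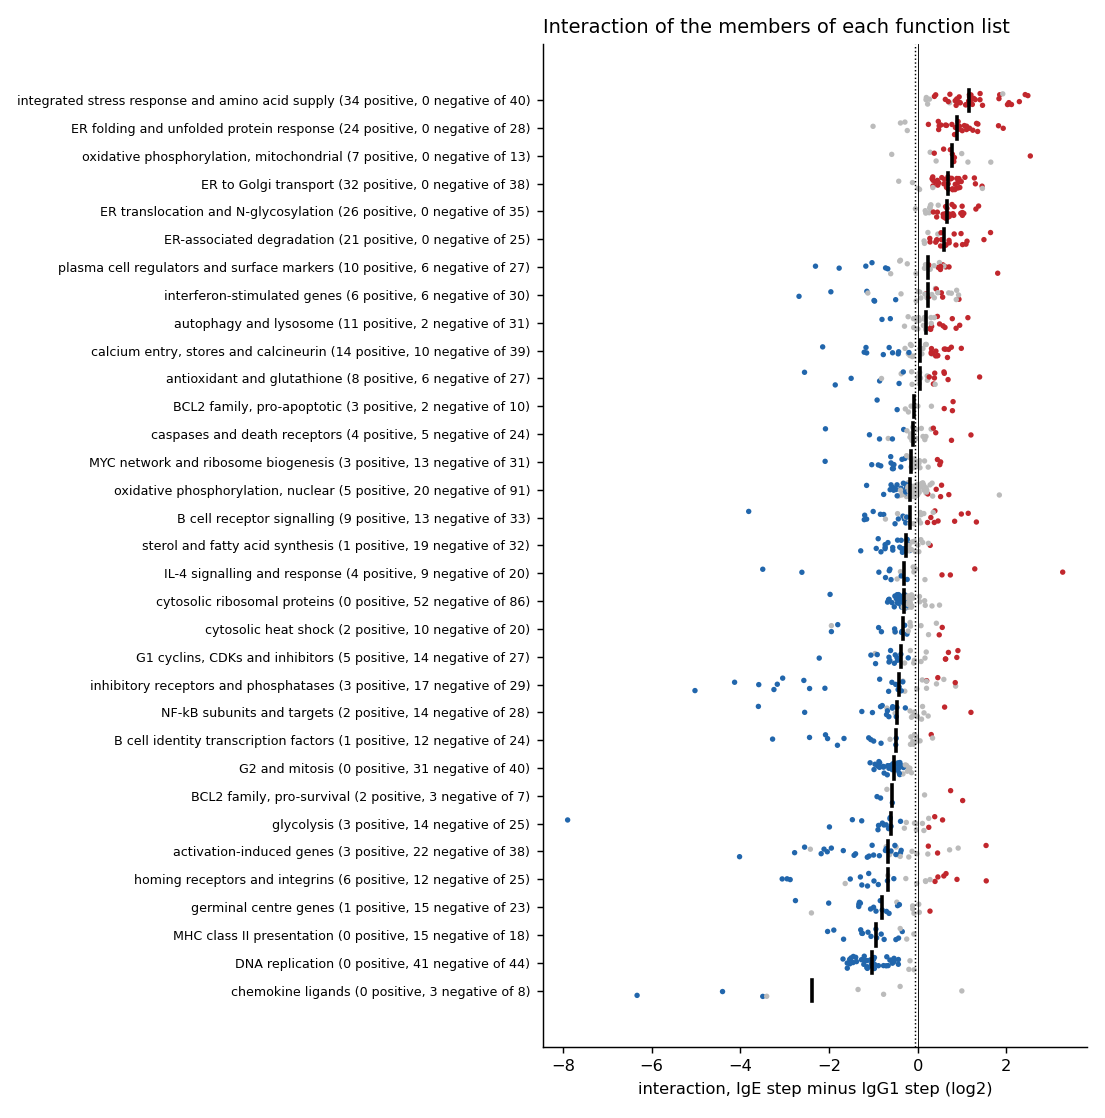
Interaction (log2, horizontal axis) of every tested member of the 33 function lists; dots are genes, red and blue those called positive and negative, grey those not called, black bars list medians, and the dotted line the median of all genes. Stress response and secretory lists lie to the right, and DNA replication, MHC class II and germinal centre lists to the left.

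Inhibitory receptors and phosphatases, which set the threshold of B cell receptor signalling, had 17 negative and 3 positive interactions among 29 genes (median -0.42). The median steps of the list were nearly equal, -0.89 in IgE and -0.91 in IgG1, and were -1.36 and -1.14 with library totals. Cd72, an inhibitory coreceptor, was at 179, 174 and 177 CPM in IgE iGC, 5.08, 5.53 and 3.66 in IgE PC, 145, 127 and 129.9 in IgG1 iGC and 54.0, 68.2 and 67.5 in IgG1 PC. It nearly vanished in IgE PC and kept part of its level in IgG1 PC, without overlap (-4.13 ± 0.16, adjusted p = 1.3e-09). Ptpn6 (SHP-1), the phosphatase these receptors recruit, fell by 1.49 in IgE and 0.91 in IgG1 (-0.58 ± 0.09, adjusted p = 0.00011). Cd22, another coreceptor, did not pass the test (-0.29 ± 0.12, adjusted p = 0.07). It did without IgG1 PC replicate 1 (adjusted p = 0.000168), with library totals (-0.53, adjusted p = 0.0106) and with a minimum count of 50 (0.0392). With IgG1 PC replicate 2 alone the Cd22 interaction was -0.36. Lilrb4a and Pirb had interactions of -3.04 and -2.57, but belong to families with near-identical copies whose counts were divided among genes, and are uncertain.

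B cell receptor signalling genes were mixed, with 9 positive and 13 negative interactions among 33 (median -0.18). Lck, a Src-family kinase, fell by 4.45 in IgE and 0.64 in IgG1 (-3.81 ± 0.19, adjusted p = 6.9e-09), and Blk, a related kinase, by 2.00 and 0.80 (-1.19 ± 0.11, adjusted p = 1.2e-06). Syk and Lyn, the kinases that start the signal, had small interactions of -0.33 ± 0.09 and -0.27 ± 0.08 (adjusted p = 0.0059 and 0.011), and Lyn lost its call with limma on TPM (-0.40, adjusted p = 0.0624). Plcg2, the phospholipase that links the receptor to calcium release, was not called and changed sign with library totals and with limma on TPM (0.07 ± 0.07, adjusted p = 0.47). Sos1, an activator of Ras, was at 43.8, 43.8 and 42.9 CPM in IgE iGC, 85.6, 79.3 and 81.3 in IgE PC, 51.2, 42.3 and 43.5 in IgG1 iGC and 28.9, 39.9 and 33.8 in IgG1 PC. It rose in IgE and fell in IgG1, an opposite movement that was also called with library totals; with IgG1 PC replicate 2 alone the IgG1 step was -0.20 and not called (1.33 ± 0.13, adjusted p = 2.0e-06).

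The calcium list, covering entry, stores and calcineurin, had 14 positive and 10 negative interactions among 39 genes and a median of 0.07, which reversed to -0.16 with library totals and -0.08 with limma on TPM. Atp2a2 (SERCA2), the pump that fills ER stores, was at 214, 213 and 204 CPM in IgE iGC, 719.8, 698 and 772 in IgE PC, 213, 209 and 206 in IgG1 iGC and 371, 368 and 361 in IgG1 PC. It rose in both isotypes and further in IgE, with no overlap between the plasma cell groups (0.99 ± 0.08, adjusted p = 2.0e-07). Itpr3, an ER calcium release channel, fell by 1.03 in IgE and 0.26 in IgG1 (-0.77 ± 0.09, adjusted p = 7.2e-06). Stim1, the sensor of store depletion, had no called step in either isotype and an interaction of 0.12 ± 0.08 (adjusted p = 0.26), negative with library totals and with limma on TPM. Camkk2, a calmodulin-dependent kinase, fell by 2.05 and 0.90 (-1.15 ± 0.15, adjusted p = 3.4e-05). Ppp3r1, the regulatory subunit of calcineurin, fell by 0.86 in IgG1, with an IgE step of -0.10 that was not called (0.76 ± 0.17, adjusted p = 0.0025). The call was lost with limma on TPM (0.63, adjusted p = 0.0545), and its counts were partly shared with similar sequences.

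Activation-induced genes had 22 negative and 3 positive interactions among 38, with a median step of -0.37 in IgE and 0.42 in IgG1. The IgG1 median was 0.18 with library totals and changed sign to -0.16 with limma on TPM, where that of IgE was -0.50. Egr2, an early growth response factor of antigen receptor signalling, was at 36.7, 40.6 and 41.8 CPM in IgE iGC, 14.6, 18.5 and 14.8 in IgE PC, 44.8, 39.5 and 36.4 in IgG1 iGC and 55.3, 71.4 and 60.4 in IgG1 PC. It fell by 1.31 in IgE and rose by 0.63 in IgG1, without overlap in either step (-1.94 ± 0.15, adjusted p = 2.9e-07). Library totals and IgG1 PC replicate 2 alone left the movement opposite. Fosl2, an AP-1 subunit, was at 5.91, 6.58 and 5.94 CPM in IgE iGC, 3.25, 4.64 and 2.75 in IgE PC, 5.84, 7.14 and 5.04 in IgG1 iGC and 15.5, 13.3 and 18.3 in IgG1 PC, and also went down in IgE and up in IgG1 in those settings (-2.17 ± 0.27, adjusted p = 1.9e-05). Nr4a1 (Nur77), a reporter of receptor signalling, fell by 1.80 in IgE, while its IgG1 step of -0.13 was not called (-1.68 ± 0.25, adjusted p = 0.0001), and the interaction lost its call with limma on TPM (-0.39, adjusted p = 0.0799). Its level stayed below 6 CPM in every library. Egr3 and Tnf fell in both isotypes, with interactions of -2.55 and -2.11. Plaur, the urokinase receptor, fell by 5.17 in IgE and 1.15 in IgG1 (-4.01 ± 0.30, adjusted p = 1.8e-07).

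Of 28 NF-kB subunits and targets 21 were called down in IgE and 24 in IgG1, with 14 negative and 2 positive interactions (median -0.47), or 13 and 4 with IgG1 PC replicate 2 alone. Lta, a lymphotoxin chain, had an interaction of -2.55, Cd40, the receptor for the feeder cells' ligand, of -1.26, and Nfkb2 of -0.70. Cflar, an inhibitor of caspase-8, was an exception with 1.20, on counts partly shared with similar sequences. Of 12 chemokine ligands 8 could be tested, 3 with a negative and 0 with a positive interaction. Ccl22, which attracts CCR4-bearing T cells, was at 70.2, 73.1 and 78.6 CPM in IgE iGC, 5.51, 6.44 and 6.59 in IgE PC, 242, 247 and 265 in IgG1 iGC and 147, 292 and 269 in IgG1 PC. The iGC groups differed already, IgE PC lost most of the transcript, and the IgG1 step of -0.09 was not called (-3.49 ± 0.29, adjusted p = 9.2e-07).

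Homing receptors and integrins had 12 negative and 6 positive interactions among 25, with median steps of -0.49 in IgE and -0.66 in IgG1 (-0.96 and -0.88 with library totals). Ccr7, the receptor for T zone chemokines, was at 72.7, 64.8 and 58.7 CPM in IgE iGC, 5.31, 5.24 and 4.81 in IgE PC, 80.9, 84.1 and 77.4 in IgG1 iGC and 37.2, 52.2 and 56.1 in IgG1 PC, lowest in IgE PC without overlap (-2.94 ± 0.18, adjusted p = 3.9e-08). Ccr6, another chemokine receptor, had an interaction of -2.87. Cxcr4, which guides plasma cells to bone marrow, rose by 1.11 in IgE, and its IgG1 step of 0.22 was not called (0.89 ± 0.16, adjusted p = 0.0005). Itga4, the alpha chain of VLA-4, was at 160.1, 162 and 182 CPM in IgE iGC, 312, 298 and 325 in IgE PC, 180.3, 171 and 189 in IgG1 iGC and 79.3, 143 and 120.0 in IgG1 PC. It rose in IgE and fell in IgG1, with IgG1 PC replicate 1 the lowest library, and moved oppositely also with library totals and with replicate 2 alone (1.55 ± 0.20, adjusted p = 3.6e-05). Of 20 genes of IL-4 signalling and response, 9 were negative and 4 positive; Il4ra, the receptor, had -0.87 and Nfil3, an IL-4-induced factor, 1.29.

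DNA replication genes fell in IgE and mostly did not fall in IgG1. Of 44 members tested, 41 had a negative interaction, 24 of them by at least 2-fold, and none a positive one, with a median of -1.03. In IgE 35 were called down and 4 up; in IgG1 8 were down and 21 up. The median step was -0.83 in IgE and 0.18 in IgG1, and the latter became -0.05 with library totals, so the direction in IgG1 depends on the setting. Mcm3, a subunit of the replicative helicase, was at 194, 177 and 178 CPM in IgE iGC, 62.1, 65.6 and 58.6 in IgE PC, 189, 169 and 168 in IgG1 iGC and 161, 185 and 189 in IgG1 PC. Both iGC groups and IgG1 PC overlapped, and IgE PC stood apart below them (-1.59 ± 0.10, adjusted p = 3.7e-08). Cdc7, the kinase that fires replication origins, fell by 2.04 in IgE and 0.36 in IgG1 (-1.68 ± 0.12, adjusted p = 1.1e-07), and Pold1, a catalytic polymerase subunit, by 1.92 and 0.38 (-1.53 ± 0.08, adjusted p = 1.1e-08).

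Genes of G2 and mitosis had 31 negative and 0 positive interactions among 40, with smaller values (median -0.53). Cdk1, the mitotic kinase, was at 53.0, 50.4 and 59.6 CPM in IgE iGC, 43.2, 48.9 and 53.4 in IgE PC, 43.0, 42.2 and 44.8 in IgG1 iGC and 73.7, 74.0 and 78.6 in IgG1 PC. Its IgE step of -0.16 was not called, and it rose by 0.80 in IgG1 (-0.96 ± 0.10, adjusted p = 4.6e-06). Mki67, a marker of cycling cells, rose by 0.79 in IgE and 1.02 in IgG1 (interaction -0.23 ± 0.14, adjusted p = 0.21), and passed the test with library totals (-0.48, adjusted p = 0.0235). Movement in opposite directions was called for 12 replication and 7 mitosis genes, with library totals for 8 and 6, with IgG1 PC replicate 2 alone for 13 and 4, and with limma on TPM for 3 and 1, where the median IgG1 steps were -0.38 and -0.34. Among G1 regulators, 14 were negative and 5 positive of 27. E2f1, a driver of S phase genes, had -1.05, Ccnd2 (cyclin D2) rose further in IgE (0.63, not called with limma on TPM), and so did Cdkn1a (p21), a cyclin-dependent kinase inhibitor, which was at 11.8, 12.7 and 9.40 CPM in IgE iGC, 54.8, 49.3 and 49.7 in IgE PC, 12.4, 13.2 and 11.6 in IgG1 iGC and 34.1, 22.9 and 32.1 in IgG1 PC. Every IgE PC library was above every IgG1 PC library (0.91 ± 0.19, adjusted p = 0.0014).

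The E2F site searched was TTTNGCGC, on both strands. It was present in 12 of 35 replication genes with a promoter (34.3%), against 1.57% of all genes. The Mcm3 promoter (chr1:20820263-20820562, minus strand) is shown because the level of Mcm3 is given above for every library, with the site in capitals, 38 bases after the start site.
Mcm3: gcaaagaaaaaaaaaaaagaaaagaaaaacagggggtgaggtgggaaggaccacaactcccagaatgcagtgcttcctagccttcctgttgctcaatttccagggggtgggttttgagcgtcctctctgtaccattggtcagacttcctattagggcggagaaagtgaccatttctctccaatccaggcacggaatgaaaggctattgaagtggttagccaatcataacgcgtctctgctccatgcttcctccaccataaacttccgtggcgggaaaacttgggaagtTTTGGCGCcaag

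Survival and death genes were few and mixed. Positive and negative interactions numbered 2 and 3 of 7 pro-survival and 3 and 2 of 10 pro-apoptotic BCL2 family genes. Among 24 caspases and death receptors they numbered 4 and 5 (37.5% called, against 42.9% of all genes). Bcl2, which blocks mitochondrial apoptosis, was at 166, 159 and 155 CPM in IgE iGC, 238, 214 and 215 in IgE PC, 143, 138 and 139.8 in IgG1 iGC and 92.7, 108 and 89.0 in IgG1 PC. It rose by 0.47 in IgE and fell by 0.54 in IgG1 (1.02 ± 0.12, adjusted p = 7.2e-06); with library totals its IgE step was 0.01 and not called, and the interaction remained, at 0.78. Bcl2l1 (Bcl-xL), another inhibitor, was at 12.1, 13.9 and 13.8 CPM in IgE iGC, 20.4, 21.6 and 22.5 in IgE PC, 16.8, 16.9 and 16 in IgG1 iGC and 57.9, 43.5 and 51.3 in IgG1 PC and rose further in IgG1 (-0.91 ± 0.13, adjusted p = 4.8e-05). Bcl2l11 (Bim), a killer of lymphocytes that these proteins hold back, averaged 63.8 ± 1.86 CPM (SD, n = 3) in IgE iGC, 119 ± 2.06 in IgE PC, 58.9 ± 1.71 in IgG1 iGC and 207 ± 6.94 in IgG1 PC. It likewise rose further in IgG1, without overlap and with a narrow spread (-0.91 ± 0.07, adjusted p = 1.9e-07). Bbc3 (Puma) rose by 1.02 in IgE, and its IgG1 step of 0.23 was not called (0.79 ± 0.14, adjusted p = 0.00049), while Bmf rose by 0.98 and 0.38 (0.60 ± 0.12, adjusted p = 0.0012; 0.146 with limma on TPM). Mcl1, on which plasma cells depend, was not called (0.16 ± 0.09, adjusted p = 0.16), but was without IgG1 PC replicate 1 (adjusted p = 0.0356), and its sign was negative with library totals and with limma on TPM. Ripk3, the kinase of necroptosis, fell by 1.31 in IgE and 0.22 in IgG1 (-1.09 ± 0.10, adjusted p = 1.2e-06).

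Mitochondrially encoded genes of oxidative phosphorylation fell mostly in IgG1. Of 13 tested, 7 had a positive interaction and 0 a negative one (median 0.79), with median steps of -0.09 in IgE and -0.92 in IgG1, and of -0.56 and -1.15 with library totals. In IgG1 10 were called down and in IgE 2. mt-Nd4, a subunit of complex I, was at 2648, 2858 and 2888 CPM in IgE iGC, 2661, 2395 and 2756 in IgE PC, 3504, 2715 and 2919 in IgG1 iGC and 1509, 1992 and 1435 in IgG1 PC. All 3 IgG1 PC libraries lay below the other 9, replicate 2 being nearest to them (0.79 ± 0.16, adjusted p = 0.0012). With replicate 2 as the only IgG1 PC library the median was 0.44 and 5 were called. The 91 nuclear genes of the pathway had 20 negative and 5 positive interactions (median -0.17), against 23.1% negative and 19.8% positive of all genes. These counts moved with the setting: 58 were negative and 0 positive with library totals, 38 and 4 with limma on TPM, and 9 and 12 with replicate 2 alone, where the median reversed to 0.05. Leaving out single libraries gave 8 negative (without IgE PC replicate 3) to 34 (without IgG1 PC replicate 2), and 12 positive without IgG1 PC replicate 1.

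Other metabolic lists had more negative than positive interactions, where 23.1% of all genes were negative and 19.8% positive. Glycolysis had 14 negative and 3 positive interactions among 25 genes (median -0.60, and -0.40 with IgG1 PC replicate 2 alone). Aldoc, an aldolase, fell by 1.48 in IgE and 0.58 in IgG1 (-0.89 ± 0.11, adjusted p = 2.0e-05), and Pfkfb4, which makes the activator of phosphofructokinase, by 1.69 and 0.90 (-0.79 ± 0.13, adjusted p = 0.0002). Of 86 cytosolic ribosomal protein genes 52 were negative and none positive (median -0.30, and -0.145 with IgG1 PC replicate 2 alone). The count depended on single libraries: leaving 1 out gave 28 (without IgE PC replicate 3) to 65 negative and 0 to 3 positive. With immunoglobulin genes left out of the TMM scaling, 35 were negative and 1 positive. Many of these genes share reads with pseudogenes. In the MYC network and ribosome biogenesis 13 were negative and 3 positive of 31, Myc itself falling by 1.17 in IgE and 0.57 in IgG1 (-0.60 ± 0.12, adjusted p = 0.00095). Sterol and fatty acid synthesis had 19 negative and 1 positive of 32, or 13 and 1 with immunoglobulin genes left out of the scaling. Fads2, a desaturase, fell by 0.93 in IgE and rose by 0.35 in IgG1. With library totals its IgG1 step was 0.12 and not called. Cytosolic heat shock genes had 10 negative and 2 positive of 20.

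Autophagy and lysosome genes had 11 positive and 2 negative interactions among 31 (41.9% called, against 42.9% of all genes). Their median of 0.18 reversed to -0.05 with library totals. Sqstm1 (p62), a cargo receptor of autophagy, was at 202, 196 and 178 CPM in IgE iGC, 1013, 997 and 1038 in IgE PC, 176, 179.5 and 181 in IgG1 iGC and 522, 361 and 409 in IgG1 PC. It rose further in IgE without overlap (1.13 ± 0.14, adjusted p = 1.4e-05). Antioxidant genes had 8 positive and 6 negative of 27 (51.9% called, against 42.9% of all genes). Their median was 0.05, and -0.18 with library totals. Hmox1, haem oxygenase, rose by 2.99 in IgE and 1.59 in IgG1 (1.40 ± 0.20, adjusted p = 5.7e-05), whereas Gpx1, a glutathione peroxidase, fell by 1.32 and 0.47 (-0.86 ± 0.08, adjusted p = 1.6e-06). Interferon-stimulated genes had 6 in each direction among 30, against 19.8% positive and 23.1% negative of all genes, and 2 positive and 7 negative with library totals. Isg20, an exonuclease, rose by 4.41 in IgE and 3.48 in IgG1 (0.93 ± 0.19, adjusted p = 0.0011).

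The genes that moved in opposite directions depended on the scaling, on the unit and test, and on the IgG1 PC libraries. Of the 612, 172 were also opposite with library totals, 49 with limma on TPM and 257 with IgG1 PC replicate 2 alone. Among the 295 genes up in IgE and down in IgG1, replicate 2 of IgG1 PC was above both other replicates for 253. Carmil1, which regulates actin capping, was at 23.0, 26.2 and 25.5 CPM in IgE iGC, 41.0, 46.0 and 54.2 in IgE PC, 37.7, 37.1 and 36.7 in IgG1 iGC and 14.3, 23.9 and 21.1 in IgG1 PC (1.82 ± 0.20, adjusted p = 7.3e-06). IgE PC lay above IgE iGC and IgG1 PC below IgG1 iGC, both without overlap. The movement was called opposite with library totals and with replicate 2 alone. Whether single named genes stayed opposite with limma on TPM was not checked. Klhl28 and Arhgap5 had interactions of 1.23 and 1.47, but their IgE steps were not called with library totals.

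Among the 317 genes down in IgE and up in IgG1, replicate 2 of IgG1 PC was below both others for 192, and for 155 (48.9%) the mean of the day 6 culture exceeded every sorted library. The same held for 27.2% of genes without a called interaction, but for 48.6% of interaction genes called in the IgG1 step alone and 48.5% of those called in neither step. The 4 named by the rule, with a mean of at least 10 CPM in a group, were Lgals3 (galectin-3), S100a6 (a calcium-binding protein), Anxa1 (annexin A1) and Nrgn (neurogranin, which binds calmodulin). Lgals3 was at 6.46, 8.80 and 6.92 CPM in IgE iGC, 3.25, 4.67 and 2.48 in IgE PC, 3.6, 6.25 and 4.11 in IgG1 iGC and 27.6, 8.84 and 22.4 in IgG1 PC (-3.15 ± 0.58, adjusted p = 0.00094). S100a6 and Anxa1 were at 44.1, 11.1 and 24.7 CPM and 13.9, 6.68 and 12.2 CPM in IgG1 PC, low in replicate 2 as Lgals3 was. The fibroblast marker sum was low in the same library, and the IgG1 step of these 3 genes was not called with replicate 2 alone; the part of feeder RNA in their rise was not tested. Nrgn was at 10.1, 11.3 and 6.25 CPM in IgE iGC, 4.24, 4.61 and 3.70 in IgE PC, 4.59, 3.19 and 3.01 in IgG1 iGC and 13.0, 13.1 and 12.6 in IgG1 PC. Its 3 IgG1 PC libraries were alike, and its movement stayed opposite with library totals and with replicate 2 alone (-2.99 ± 0.28, adjusted p = 1.1e-06). Ccnd1 (cyclin D1), which was called in the IgG1 step alone, was at 18.4, 8.01 and 19.8 CPM in IgG1 PC, and its interaction of -2.22 lost its call with replicate 2 alone.

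**Figure D5:**
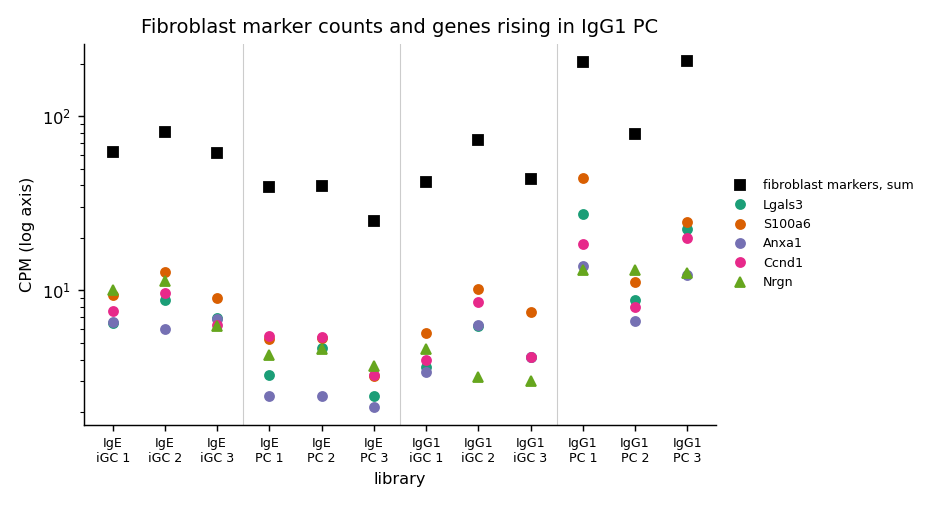
Level (CPM, log axis) of the summed fibroblast markers (squares) and of 5 genes higher in IgG1 PC, for each of the 12 sorted libraries. The sum, Lgals3, S100a6, Anxa1 and Ccnd1 are lower in IgG1 PC replicate 2 than in replicates 1 and 3, while Nrgn is at 12.6 to 13.1 CPM in all of them.

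The remaining genes named by size in their class were mostly outside the lists above. Prlr, the prolactin receptor, was at 0.705, 0.75 and 0.517 CPM in IgE iGC, 47.2, 46.8 and 49.8 in IgE PC, 1.28, 1.26 and 1.71 in IgG1 iGC and 15.2, 16.7 and 14.5 in IgG1 PC, a rise of 6.13 in IgE and 3.46 in IgG1 (2.68 ± 0.21, adjusted p = 2.4e-07). Arhgap32, a GTPase-activating protein, rose from below 0.2 CPM to 13.0, 12.3 and 14.1 CPM in IgE PC and 0.455, 0.907 and 1.19 in IgG1 PC (3.29 ± 0.61, adjusted p = 0.00053). Sorl1, a sorting receptor, was at 353, 339.5 and 363 CPM in IgE iGC, 8.94, 11.3 and 7.98 in IgE PC, 328, 295 and 295 in IgG1 iGC and 83.4, 158 and 149.7 in IgG1 PC; it was lowest in IgE PC, and IgG1 PC replicate 1 stood below the others of its group (-4.00 ± 0.28, adjusted p = 2.5e-07). Dusp4, a phosphatase of MAP kinases from the activation list, rose further in IgG1, by 1.5 against 0.40 (-1.09 ± 0.17, adjusted p = 0.00015), as did Zfyve28, by 4.36 against 3.29 (-1.07 ± 0.26, adjusted p = 0.0037). Irf2bp2, a transcriptional corepressor, fell further in IgG1, by 1.07 against 0.25 (0.82 ± 0.11, adjusted p = 2.9e-05), and so did Ap1s2, an adaptor subunit, by 1.52 against 0.70 (0.82 ± 0.20, adjusted p = 0.0036; 0.0721 with limma on TPM).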

How the data were processed

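PolyA RNA from the cultures was sequenced as strand-specific single-end reads, per the labels' protocols. The authors deposited 1 table with an RSEM expected count and a TPM value per gene and library. The submitters' processing notes name cutadapt 1.9.1, STAR 2.5.2a, RSEM 1.3.0, DESeq2 1.12.3 and GRCm38; the annotation is not given in the sources used here. Expected counts, which divide reads among similar genes, were rounded. Genes were kept at a minimum count of 10 (filterByExpr), scaled by TMM and fitted with edgeR 4.0.16 (R 4.3.3) as 5 groups over all 15 libraries, with contrasts tested by the robust quasi-likelihood test and p-values adjusted over all genes by the Benjamini-Hochberg method. CPM values are TMM-scaled, and standard errors are approximate, from each log2 difference and its F value. Values printed with ± are interactions with this SE, except where an SD is stated. Alternatives included library totals, DESeq2 1.42.0 and limma 3.58.1 on log2(TPM + 1). The fits were tested on simulated data, where 78% of 2-fold and 32% of 1.5-fold interactions were recovered and 5.98% of calls were false. Only 100 genes were changed by each fold among 15692, and each gene had the same dispersion in every group. In the data 42.9% of genes were called and the IgG1 PC libraries were less alike, so these shares need not carry over. A gene that was not called may still differ. Genes were named by rule: the 4 with the largest difference per class and per list at a mean of at least 10 CPM in a group, plus fixed anchor genes; some genes named by it are not reported here. The comparison and the gene lists were chosen with earlier results of these data known. P-values rest on the spread between biological replicates, 3 per group, estimated over the 5 groups together. The wider spread between IgG1 PC libraries is therefore averaged with that of the other groups. With replicate 2 as the only IgG1 PC library, that group adds no spread, so calls in that setting do not measure it.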

Additional observations from a re-analysis of the deposited data

Results flagged for a closer look

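The interaction term found a different plasma cell step in the isotypes for 6733 genes, and 612 of them moved in opposite directions. Among 8 opposite genes named by the rule, with a mean of at least 10 CPM in a group, the interaction in log2 units was 1.82 for Carmil1, 1.55 for Itga4, 1.23 for Klhl28 and 1.47 for Arhgap5, which rose in IgE and fell in IgG1. It was -2.68 for Anxa1, -2.93 for S100a6, -2.99 for Nrgn and -3.15 for Lgals3, which fell in IgE and rose in IgG1. The fibroblast marker sum moved across the IgG1 PC libraries with Anxa1, S100a6 and Lgals3, and its part in them was not tested.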

How the results depend on the processing

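With limma on log2(TPM + 1) 4354 genes were called in the interaction, 1289 of them positive; 404 rose further and 2173 fell further in IgE, 174 fell further in IgG1, 110 moved up in IgE and down in IgG1, and 129 the reverse. With library totals 1542 were positive and 5603 negative, with 609 larger rises and 3018 larger falls in IgE, 169 larger rises in IgG1 and 111 up in IgE and down in IgG1. With IgG1 PC replicate 2 alone 184 moved down in IgE and up in IgG1, and without the low count filter 67 fell further in IgG1. Leaving out single libraries gave 76 to 183 larger rises in IgG1, 55 to 397 larger falls in IgG1 and 221 to 530 genes up in IgE and down in IgG1. Genes called between the iGC groups numbered 937 with DESeq2, 1539 with IgG1 PC replicate 2 alone and 329 to 1234 with single libraries left out.

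Reversed list medians were -0.16 (library totals) and -0.078 (limma) for calcium, 0.12 for pro-apoptotic and 0.047 for nuclear oxidative phosphorylation genes (both with IgG1 PC replicate 2 alone), -0.049 for autophagy (library totals), -0.0063 and -0.013 for interferon-stimulated genes (library totals and limma), and -0.18 (library totals) and -0.0023 to 0.24 (single libraries left out; negative without IgG1 PC replicate 3) for antioxidant genes. Genes reported here that reversed, all uncalled, were Igkc (-0.12 with library totals, -0.0019 to 0.35 with single libraries left out), Sec24d (-0.19, and -0.048 to 0.13), Plcg2 (-0.17 and -0.067 with library totals and limma), Stim1 (-0.12 and -0.0045) and Mcl1 (-0.077 and -0.089). The cause of these shifts was not tested.

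The replicate numbers showed no sign of pairing: over 18 pairs of same-numbered libraries, deviations from the group means correlated at -0.195 to 0.091, and 0 pairs were over 0.1. Such correlations cannot show whether same-numbered libraries share an animal, which the labels do not give. A fit with that number as a replicate block called 6533 genes, including 6428 of the 6733.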
